A study of Mus musculus with 16 samples.

Results

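Fatty acid oxidation was examined through 34 genes of mouse liver, taken from a table of 25006 genes. The genes were listed by function, for the carnitine shuttle, mitochondrial and peroxisomal beta-oxidation and targets of the nuclear receptor PPAR-alpha, and were not chosen by a threshold on these values. Earlier results of these data were known, however, when these genes and the further gene lists below were chosen. All 34 had counts above 0 in every library and passed the filter on low counts, as did 13180 genes in all.

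The libraries came from livers of C57BL/6 mice, an inbred laboratory strain, taken 4 h after a single gavage. The gavage was a slurry of chow or of fast food, and the drinking water was either control water or water with antibiotics. This gave 4 groups of 4 libraries: chow control, fast food control, chow antibiotic and fast food antibiotic. Which antibiotics were used, at what dose and for how long is not given in the sources used here, nor are the age and sex of the mice. All mice had received a meal, so no group shows a fasted liver or one without gavage. The labels do not say that each replicate is a separate mouse, and the p-values then measure only the spread between these samples. RNA came from whole liver, in which fewer cells of a type and less RNA per cell cannot be told apart.

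Long-chain fatty acids enter mitochondria as carnitine esters, which the carnitine palmitoyltransferases and a translocase carry across the inner membrane. Inside, acyl-CoA dehydrogenases, hydratases, hydroxyacyl-CoA dehydrogenases and thiolases shorten the chain step by step, and electrons pass through the electron transfer flavoprotein to the respiratory chain. Peroxisomes start on very long and branched chains and hand shortened products to mitochondria. In hepatocytes PPAR-alpha, a receptor that fatty acids activate, binds with RXR to paired copies of a short motif in the DNA near many of these genes. The liver uses this programme in fasting to make ketone bodies.

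Total counts ran from 8954378 to 18954655 per library. Features that take ribosomal RNA-like reads held 0.120% to 0.587% of counts in 9 libraries and 2.45% to 8.42% in the other 7. Fast food antibiotic replicate 2 stood apart from its group. On the first principal component of all tested genes it lay at 45.4, inside the range of the chow antibiotic libraries (36.5 to 74.1), while replicates 1, 3 and 4 lay below 0, as did all control-water libraries. It was the lowest library of its group for 32 of the 34 genes, so counts and the main differences that use this group are given with it and without it (3 libraries in the group). Its label was kept as given, and whether the label is right was not tested, so every value of the fast food antibiotic group depends on that label. Chow control replicate 2, chow antibiotic replicate 4 and this library had the highest acute phase transcripts of their groups.

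The 34 genes as a whole were lowest in chow antibiotic livers. Summed over the genes, CPM (read counts scaled to library size, with TMM factors) was 20929, 17496, 22708 and 23895 in chow control replicates 1 to 4 and 24131, 18386, 18946 and 16480.1 in fast food control. The sums were 5859.7, 6683, 7975 and 8391 in chow antibiotic replicates 1 to 4 and 13366, 6675, 16579 and 12227 in fast food antibiotic. Every chow antibiotic library was below every control-water library. Fast food antibiotic replicates 1, 3 and 4 were above all 4 chow antibiotic libraries, replicate 2 was among them, and replicate 3 lay just above the lowest fast food control library. The group means were 21257 ± 2788 in chow control, 19486 ± 3272 in fast food control, 7227 ± 1166 in chow antibiotic and 12212 ± 4125 in fast food antibiotic (SD, n = 4 each). With replicate 2 left out the last of these was 14058 ± 2256 (SD, n = 3).

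**Figure D1:**
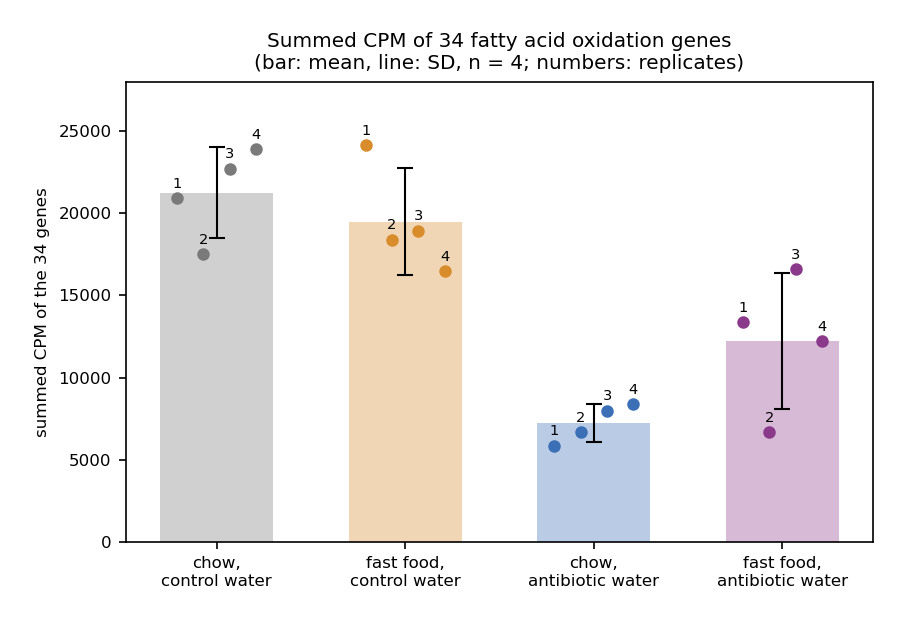
Summed CPM of the 34 fatty acid oxidation genes in each library (points, numbered by replicate), with the group mean (bar) and SD (line), n = 4 per group. The chow antibiotic libraries lie between 5859.7 and 8391, and fast food antibiotic replicate 2 lies at 6675.

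The first comparison asks how hepatic transcripts differ with antibiotic water when the meal is chow. Of the 34 genes, 28 were lower in antibiotic water and none higher (edgeR adjusted p under 0.05), where 23.8% of all tested genes changed and 13.2% were lower. The median log2 fold change was -0.94 over the 34 genes and -0.01 over all tested genes. For 28 of the 34 genes no antibiotic library overlapped any control-water library, against 24.8% of all genes. Among the libraries with a low ribosomal RNA-like share (2 chow control, 2 chow antibiotic and all fast food control libraries) 32 of the 34 were called, where 25.1% of all genes were. Among those with a high share (2 chow control, 2 chow antibiotic and 3 fast food antibiotic libraries) none was called by edgeR, where 0.0243% of all genes were. Of the 34, 19 had an unadjusted p under 0.05 and 31 fold changes were negative.

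The second comparison asks the same with the fast food meal. In it 5 of the 34 genes were lower and none higher, where 5.99% of all genes changed and 2.22% were lower. The 5 were Crot, Acadm, Acaa2, Eci2 and Aldh3a2. In all, 31 of the 34 fold changes were negative, with a median of -0.40 against 0.02 over all genes, and 10 genes had groups that did not overlap (18.4% of all genes). With the divergent replicate 2 of fast food antibiotic left out, 1 of the 34 was called, where 2.83% of all genes were. The count was 0 when replicate 1 or 3 of fast food control or replicate 4 of fast food antibiotic was dropped. It was also 1 when fast food control replicate 2 or replicate 1 of fast food antibiotic was dropped. It was 3 without chow control replicate 1 or fast food control replicate 4, and 11 without fast food antibiotic replicate 3. With the ribosomal RNA-like share as a covariate it was 0, as for all genes (0.00%), with 5 of the 34 at an unadjusted p under 0.05 (edgeR). That share was 0.162% to 0.338% in fast food control and 0.587% to 8.23% in fast food antibiotic. Water and share therefore cannot be told apart in this comparison.

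The third comparison asks how the meals differ in control water. None of the 34 genes changed between fast food and chow there by edgeR, where 0.577% of all genes changed. At an unadjusted p under 0.05 there were 3 of the 34 (11.5% of all genes), and DESeq2 called 1, Pdk4. The fold changes were positive for 17 genes and negative for 17, with a median of 0.01 against -0.02 over all genes. The groups did not overlap for Slc22a5, Crot and Pdk4, all lower after fast food (10.3% of all genes did not overlap).

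The fourth comparison asks how the meals differ in antibiotic water. Of the 34 genes, 16 were higher after fast food and none lower, where 13.7% of all genes changed and 7.78% were higher. The fold changes were positive for 32 genes, with a median of 0.54 against 0.03 over all genes, and the groups did not overlap for Fabp1, Hadh and Ppara (14.5% of all genes). Without fast food antibiotic replicate 2, 26 of the 34 were called, where 22.8% of all genes were. Dropping chow antibiotic replicate 1 or 2 gave 9 or 8, and dropping replicate 3 or 4 of fast food antibiotic gave 8 or 10. In a fit to these 2 groups alone none of the 34 passed, where 1.87% of all genes did (17 of the 34 at an unadjusted p under 0.05, lowest adjusted p 0.0543, edgeR). Among the libraries with a high ribosomal RNA-like share none passed either, where 0.00810% of all genes did, with 8 of the 34 at an unadjusted p under 0.05 and 29 positive fold changes, and the low-share side held too few fast food antibiotic libraries for this comparison.

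The difference between the meal effects in the 2 waters was tested as an interaction. It was called for 6 of the 34 genes: Cpt2, Slc22a5, Crot, Fabp1, Acaa1b and Ppara. For all 6 the fold change of fast food against chow was higher in antibiotic water than in control water. Of all genes, 3.94% were called and 2.36% in this direction. In control water Slc22a5 and Crot were lower after fast food, with groups that did not overlap, though neither was called. Without fast food antibiotic replicate 2 the count was 18 (11.2% of all genes), and with the ribosomal RNA-like share as a covariate it was 1 (1.08% of all genes). It was 1 to 3 when chow control replicate 1, fast food control replicate 2 or 3, replicate 1 of chow antibiotic or replicate 4 of fast food antibiotic was dropped. The comparisons share groups, so they are not independent of each other.

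**Figure D2:**
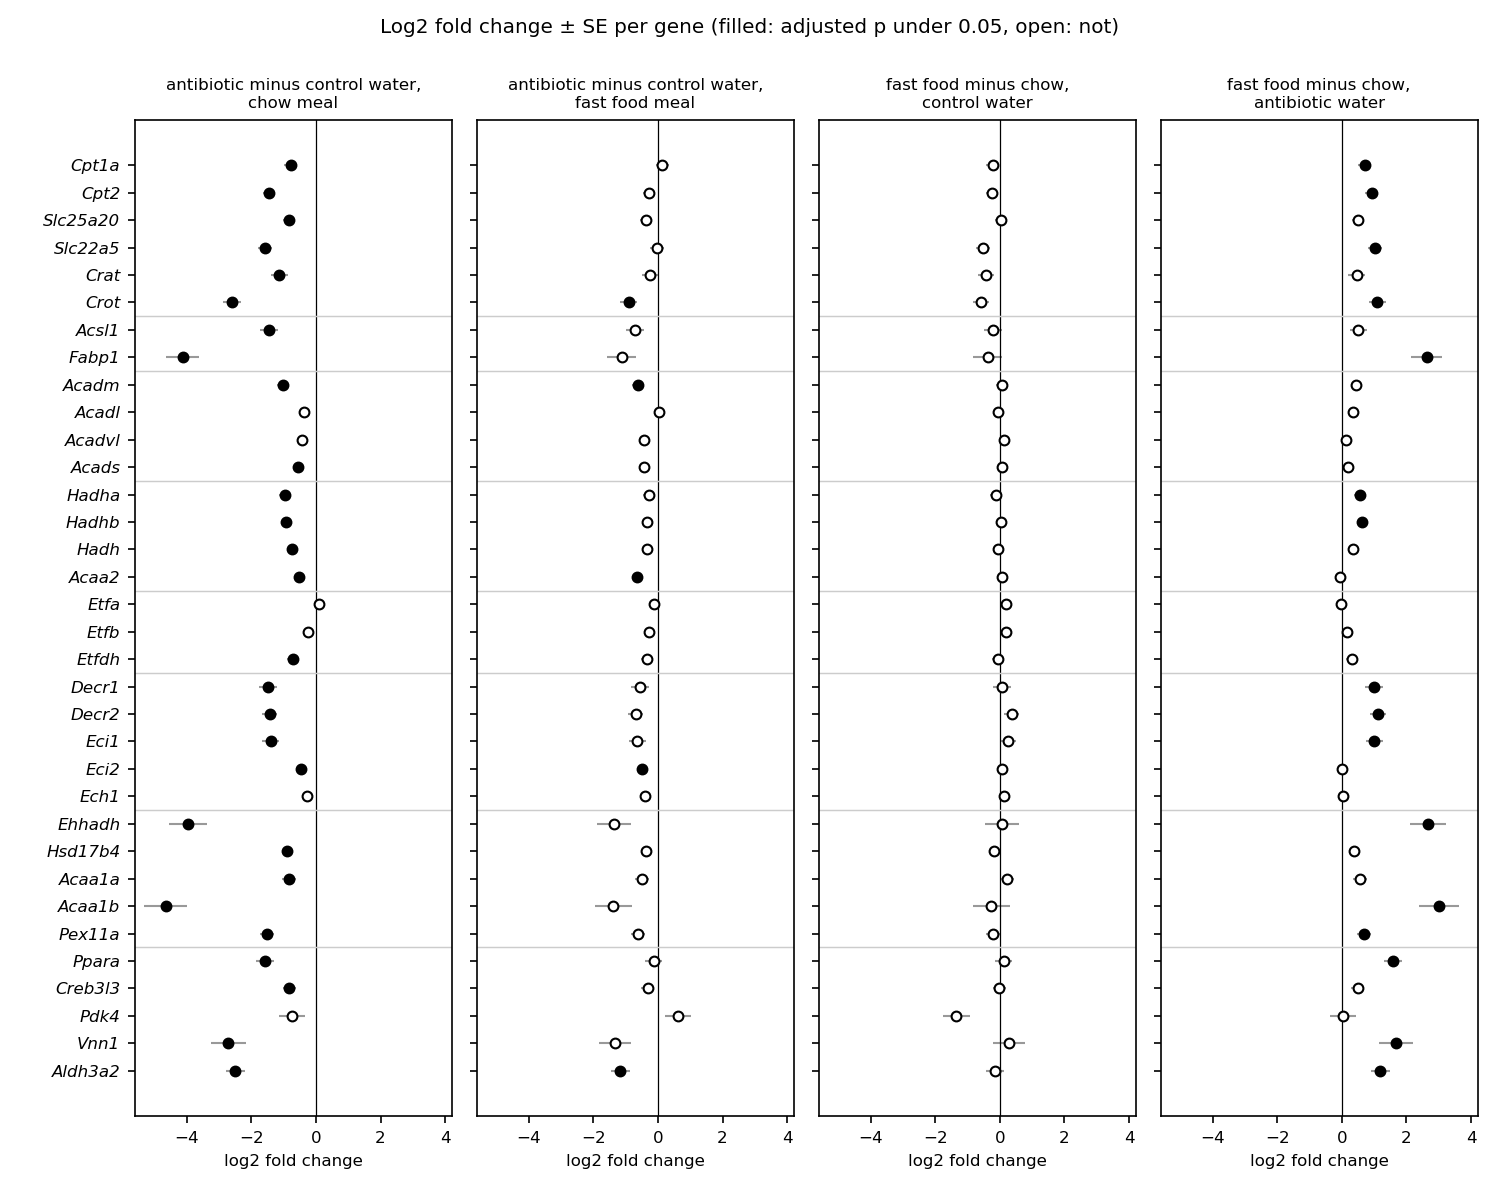
Log2 fold change ± SE (edgeR) of each gene, grouped by role from top to bottom, in the 4 comparisons of 2 groups. Filled points have an adjusted p under 0.05. Filled points on the left of zero number 28 for antibiotic water with chow and 5 with fast food, and on the right 16 for fast food in antibiotic water.

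The carnitine shuttle genes were lower in antibiotic water with chow for 6 of 6 and higher after fast food in antibiotic water for 4 of 6 (Cpt1a, Cpt2, Slc22a5 and Crot), or for 6 of 6 when fast food antibiotic replicate 2 was left out. Crot encodes the peroxisomal carnitine octanoyltransferase, which passes shortened chains on as carnitine esters, and lies at chr5:8966033-8997324 (GRCm38, minus strand). Its CPM was 1522, 1309, 1366 and 1433 in chow control replicates 1 to 4 and 1055, 1019, 885 and 805 in fast food control. It was 178, 159.6, 272 and 326 in chow antibiotic replicates 1 to 4 and 473, 276, 787 and 472 in fast food antibiotic. Each antibiotic library was below each control-water library of the same meal, and only fast food antibiotic replicate 2 fell into the chow antibiotic range. The log2 fold change for antibiotic water was -2.59 ± 0.27 with chow (SE, edgeR adjusted p = 2.51e-05) and -0.91 ± 0.26 with fast food (adjusted p = 0.0491). The meal difference in antibiotic water was 1.10 ± 0.26 (adjusted p = 0.0141), and the interaction 1.68 ± 0.37 (adjusted p = 0.0222). Leaving out replicate 2 gave 1.30 ± 0.23 (adjusted p = 0.00086) for the meal and 1.87 ± 0.31 (adjusted p = 0.00129) for the interaction, while the antibiotic difference with fast food, -0.71 ± 0.23, no longer passed (adjusted p = 0.0947).

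Cpt1a, the outer-membrane transferase and the main control point of the pathway, lies at chr19:3322334-3385733 on the plus strand. Its CPM was 1171, 1251, 1204 and 1409 in chow control replicates 1 to 4 and 517, 613, 862 and 933 in chow antibiotic. After fast food it was 1195, 1185, 1012 and 945 in control water and 1311, 739, 1397 and 1335 in antibiotic water. The chow groups did not overlap, and fast food antibiotic replicates 1, 3 and 4 were above all fast food control libraries while replicate 2 was below them. The fold change for antibiotic water was -0.78 ± 0.20 with chow (adjusted p = 0.00973, edgeR) and 0.14 ± 0.20 with fast food (adjusted p = 0.696). Fast food in antibiotic water gave 0.71 ± 0.20 (adjusted p = 0.0287), which became 0.87 ± 0.17 without replicate 2 (adjusted p = 0.00174). The antibiotic difference with fast food was then 0.31 ± 0.17 (adjusted p = 0.304).

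Cpt2 encodes the inner-membrane transferase that restores acyl-CoA in the matrix. Its CPM was 200.4, 179.7, 202 and 229 in chow control replicates 1 to 4, 193, 159, 185 and 150.2 in fast food control and 60.9, 83.0, 74.3 and 80.0 in chow antibiotic. In fast food antibiotic it was 181, 81.5, 168 and 134, so that replicate 2 alone lay in the chow antibiotic range. Antibiotic water gave -1.44 ± 0.19 with chow (adjusted p = 0.000109, edgeR) and -0.28 ± 0.19 with fast food (adjusted p = 0.352), and the interaction was 1.16 ± 0.26 (adjusted p = 0.0244). Without replicate 2 the last 2 values were -0.10 ± 0.14 (adjusted p = 0.717) and 1.34 ± 0.19 (adjusted p = 0.000375).

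Slc22a5, which imports carnitine into the cell, was at 65.7, 83.5, 74.1 and 65.2 CPM in chow control replicates 1 to 4 and 60.5, 42.4, 50.9 and 46.5 in fast food control. In antibiotic water it was at 16.6, 19.4, 22.2 and 38.9 after chow and 61.4, 38.0, 50.8 and 45.8 after fast food. The fast food libraries of both waters covered nearly the same range, while the chow libraries of the 2 waters did not overlap. With antibiotic water the fold change was -1.59 ± 0.22 with chow (adjusted p = 0.000184, edgeR) and -0.03 ± 0.21 with fast food (adjusted p = 0.946), with an interaction of 1.56 ± 0.30 (adjusted p = 0.0129). The last pair was 0.07 ± 0.22 (adjusted p = 0.897) and 1.65 ± 0.31 (adjusted p = 0.0035) without replicate 2. This was the only one of the 6 interactions that kept its call without each library in turn. Of the 50-base stretches of its exons 26.3% also occur elsewhere in the annotation, mostly in Slc22a21, so its counts depend on how reads with several matches were handled.

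The translocase gene Slc25a20 had a mean of 206 ± 23.3 CPM in chow control and 116 ± 24.2 in chow antibiotic (SD, n = 4), a log2 fold change of -0.83 ± 0.18. Crat, which buffers acetyl-CoA as acetylcarnitine, had 131 ± 12.5 and 59.9 ± 11.0 CPM (-1.13 ± 0.26). Both were called in this comparison and in no other.

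The fatty acid carrier gene Fabp1 had one of the largest differences. Fabp1 (ENSMUSG00000054422, chr6:71199827-71205023, plus strand) encodes the liver fatty acid binding protein, an abundant cytosolic carrier that brings ligands to PPAR-alpha. Its CPM was 3894, 2489, 4325 and 4352 in chow control replicates 1 to 4 and 3903, 2466, 2745 and 2511 in fast food control. It was 132, 113, 250.4 and 372 in chow antibiotic and 1176, 389, 2253 and 1539 in fast food antibiotic. No antibiotic library overlapped the control-water libraries of its meal, and the 2 antibiotic groups did not overlap each other, though fast food replicate 2 (389) was close to chow replicate 4 (372). The antibiotic difference was -4.12 ± 0.51 with chow (adjusted p = 0.00014, edgeR) and -1.12 ± 0.45 with fast food (adjusted p = 0.139). Fast food in antibiotic water gave 2.63 ± 0.48 (adjusted p = 0.00545), and the interaction was 3.00 ± 0.65 (adjusted p = 0.024). Dropping fast food replicate 2 gave -0.82 ± 0.38 (adjusted p = 0.223), 2.93 ± 0.39 (adjusted p = 0.000205) and 3.29 ± 0.51 (adjusted p = 0.00152) for these last 3 values.

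Because PPAR-alpha binds DNA as a partner of RXR, the bases just before the start sites were searched for the DR1 arrangement, a pair of core motifs with 1 base between them, written AGGNCANAGGNCA or TGNCCTNTGNCCT on the other strand. RefSeq promoter windows (GRCm38.p6) matched 29 of the 34 genes. Within 250 bases before the start, Fabp1 alone of the 29 had such a match, as had 0.4% of 27025 genes with windows (0.338% of 32851 promoter windows). The match lies 67 to 55 bases before the RefSeq start. The single core motif AGGTCA (or TGACCT), which can be part of a DR1, was in 17.2% of the 29 (Acadm, Acadvl, Cpt1a, Creb3l3 and Fabp1). It was in 15.8% of all genes with windows and in 14% of all windows. A match is a description of the letters and not of binding, and its absence says only that they are not in this window. The windows of the 3 genes with the largest fold changes are shown 5′ to 3′ on the gene's own strand, with the DR1 match in capitals, to show the DNA next to which these changes occurred. They run from 250 bases before the RefSeq start up to that start (Acaa1b, Ehhadh) or, for Fabp1, to the base before the first annotated exon. Their positions are chr6:71199629-71199826 on the plus strand for Fabp1, chr9:119157094-119157343 on the minus strand for Acaa1b and chr16:21787835-21788084 on the minus strand for Ehhadh.
Fabp1: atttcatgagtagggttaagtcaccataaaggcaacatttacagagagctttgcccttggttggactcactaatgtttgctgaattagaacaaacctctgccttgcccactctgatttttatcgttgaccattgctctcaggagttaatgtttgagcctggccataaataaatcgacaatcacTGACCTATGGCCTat
Acaa1b: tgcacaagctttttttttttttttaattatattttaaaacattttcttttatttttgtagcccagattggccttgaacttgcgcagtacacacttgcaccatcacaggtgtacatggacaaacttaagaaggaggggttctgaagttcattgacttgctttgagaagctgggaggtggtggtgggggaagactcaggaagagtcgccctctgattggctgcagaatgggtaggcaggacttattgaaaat
Ehhadh: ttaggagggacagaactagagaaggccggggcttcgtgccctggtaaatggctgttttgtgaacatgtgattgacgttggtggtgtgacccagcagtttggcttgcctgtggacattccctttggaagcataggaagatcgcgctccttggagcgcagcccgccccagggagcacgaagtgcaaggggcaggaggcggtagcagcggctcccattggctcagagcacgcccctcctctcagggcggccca

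Acsl1, the main long-chain acyl-CoA synthetase of liver, had 2138 ± 341 CPM in chow control and 789.6 ± 175 in chow antibiotic (SD, n = 4), a log2 fold change of -1.44 ± 0.28 (adjusted p = 0.00191, edgeR). After fast food the means were 1836 ± 290.2 in control and 1128 ± 533 in antibiotic water, and neither comparison with this last group passed. With replicate 2 left out the meal difference in antibiotic water passed (0.74 ± 0.22, adjusted p = 0.0233).

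The genes of peroxisomal beta-oxidation and peroxisome division were lower in antibiotic water with chow for 5 of 5, and 3 of 5 were higher after fast food in antibiotic water (5 of 5 without fast food antibiotic replicate 2). Acaa1b, a peroxisomal thiolase gene abundant in liver (ENSMUSG00000010651, chr9:119148023-119157093, minus strand), had the largest fold change of the 34 genes in both antibiotic comparisons, in the meal comparison in antibiotic water and in the interaction. Its CPM was 819.9, 628, 934 and 972 in chow control replicates 1 to 4 and 956, 670.2, 602 and 559.8 in fast food control. It was 18.0, 15.1, 53.0 and 47.9 in chow antibiotic and 302, 35.7, 491 and 244 in fast food antibiotic. The control-water libraries were all above the antibiotic libraries, and fast food antibiotic replicate 2 was the only one of its group in the chow antibiotic range. The effect of antibiotic water was -4.65 ± 0.67 with chow (adjusted p = 0.000445, edgeR) and -1.38 ± 0.58 with fast food (adjusted p = 0.156). Fast food in antibiotic water gave 3.01 ± 0.62 (adjusted p = 0.00991), and the interaction was 3.27 ± 0.83 (adjusted p = 0.0462). These 3 values became -1.02 ± 0.42 (adjusted p = 0.175), 3.37 ± 0.43 (adjusted p = 0.000204) and 3.63 ± 0.56 (adjusted p = 0.00175) without replicate 2. That was the only 1 of 16 fits with 1 library left out in which the interaction call held.

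Its paralog Acaa1a lies 183 kb away on the same chromosome. It had 162 ± 23.7 CPM in chow control and 91.7 ± 23.0 in chow antibiotic (SD, n = 4), a fold change of -0.82 ± 0.22. Of the 50-base exon stretches of Acaa1b 30.5% also occur in Acaa1a, so counting could have moved reads between them, and 9.15% occur in Dlec1, which overlaps Acaa1b on the opposite strand.

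Ehhadh, the peroxisomal bifunctional enzyme (ENSMUSG00000022853, chr16:21761287-21787807, minus strand), was at 2621, 1816, 2649.9 and 3176 CPM in chow control replicates 1 to 4 and 3989, 2206, 2691 and 1907 in fast food control. In antibiotic water it was at 113, 128, 228 and 192 after chow and 1534, 136, 1573 and 956 after fast food. Replicates 1, 3 and 4 of the last group were far above the chow antibiotic libraries and replicate 2 was inside their range. Antibiotic water gave -3.96 ± 0.58 with chow (adjusted p = 0.000488, edgeR) and -1.36 ± 0.53 with fast food (adjusted p = 0.125), and fast food in antibiotic water gave 2.67 ± 0.55 (adjusted p = 0.00969). The values that use fast food antibiotic were -1.001 ± 0.30 (adjusted p = 0.0778) and 3.03 ± 0.30 (adjusted p = 1.7e-05) without replicate 2.

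Hsd17b4, the other bifunctional enzyme of peroxisomes, which serves branched chains, was at 875, 797, 944 and 939 CPM in chow control replicates 1 to 4 and 409.5, 460.2, 486 and 539 in chow antibiotic. It was at 915, 758, 801 and 663 in fast food control and 651, 453, 725 and 621 in fast food antibiotic. The chow groups were separate and the fast food groups overlapped. Its fold change with chow was -0.91 ± 0.14 (adjusted p = 0.000419, edgeR), the only call for this gene with all libraries. Its meal difference in antibiotic water was 0.37 ± 0.14 (adjusted p = 0.0913) and 0.48 ± 0.13 without fast food replicate 2 (adjusted p = 0.0122). Pex11a, which promotes division of peroxisomes, was at 100.2, 74.3, 96.3 and 82.3 CPM in chow control and 30.1, 30.6, 32.6 and 30.8 in chow antibiotic. In fast food control it was at 96.7, 67.6, 71.5 and 70.0 CPM and in fast food antibiotic at 68.8, 29.4, 66.1 and 36.1. The antibiotic difference with chow was -1.51 ± 0.22 (adjusted p = 0.000285), and the fast food libraries in antibiotic water fell into a high pair and a low pair.

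**Figure D3:**
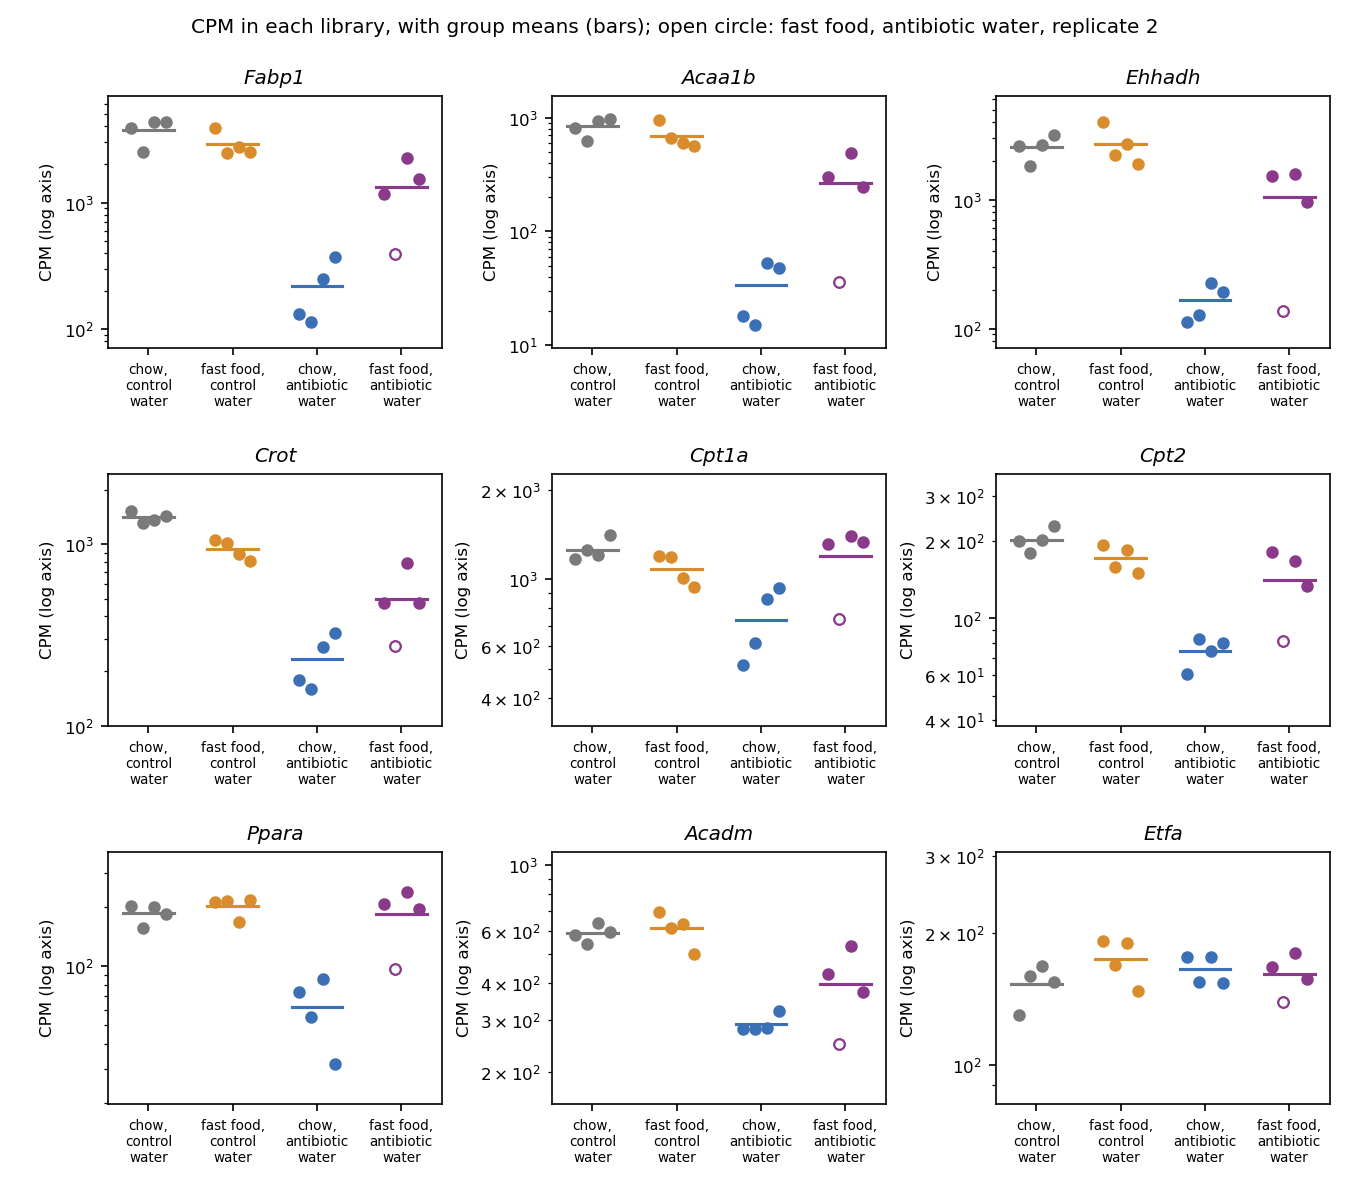
CPM of 9 of the genes in each library on log axes, with group means as bars and replicates 1 to 4 from left to right. For Fabp1, Acaa1b, Ehhadh and Cpt2 the open circle (fast food antibiotic replicate 2) lies near or within the chow antibiotic points, and for Etfa the 4 groups overlap.

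The acyl-CoA dehydrogenases, which open each mitochondrial cycle, were lower in antibiotic water with chow for 2 of 4, and none of the 4 was called for the meal in either water with all libraries. When fast food antibiotic replicate 2 was dropped, Acadm and Acadl were higher after fast food in antibiotic water. Acadm, the medium-chain enzyme, was at 581, 540.4, 638 and 591 CPM in chow control replicates 1 to 4 and 278, 279, 282 and 321 in chow antibiotic. It was at 692, 615, 634 and 502 in fast food control and 428, 249, 531 and 372 in fast food antibiotic. Its chow groups were far apart relative to their spread, and its fast food groups overlapped in replicate 3 of antibiotic water. With antibiotic water the fold change was -1.02 ± 0.17 with chow (adjusted p = 0.000642, edgeR) and -0.63 ± 0.17 with fast food (adjusted p = 0.0419). The fast food value did not pass without fast food antibiotic replicate 2 (-0.47 ± 0.13, adjusted p = 0.0666). The short-chain enzyme gene Acads had -0.55 ± 0.15 with chow (adjusted p = 0.0128). The long-chain and very long-chain enzyme genes Acadl (-0.38 ± 0.14, adjusted p = 0.0602) and Acadvl (-0.43 ± 0.16, adjusted p = 0.0546) did not pass. Of the exons of Acadvl 42.9% overlap Dvl2 on the opposite strand.

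The later mitochondrial steps were lower in antibiotic water with chow for 4 of 4. Hadha and Hadhb encode the subunits of the trifunctional protein, which carries out the last reactions on long chains. Their genes are divergent neighbours on chromosome 5, 85 bases apart (chr5:30118304-30155162 and chr5:30155248-30184593). Hadhb was at 78.0, 81.0, 101 and 96.0 CPM in chow control replicates 1 to 4 and 41.8, 40.5, 52.5 and 54.0 in chow antibiotic, with 107, 88.5, 84.1 and 87.6 in fast food control and 71.4, 47.7, 90.2 and 82.5 in fast food antibiotic. The 2 subunits had nearly the same fold changes, -0.96 ± 0.18 for Hadha and -0.92 ± 0.17 for Hadhb in antibiotic water with chow (adjusted p = 0.00157 and 0.00115, edgeR), and 0.57 ± 0.18 and 0.63 ± 0.17 for fast food in antibiotic water (adjusted p = 0.0485 and 0.0217). The meal differences were 0.75 ± 0.14 and 0.78 ± 0.14 without fast food replicate 2 (adjusted p = 0.00125 and 0.000792). Of the exon stretches of Hadhb 19.7% occur in other genes, and 18.9% in annotated pseudogenes.

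Hadh, the dehydrogenase for short and medium hydroxyacyl-CoA, was at 309.7, 307, 384 and 329 CPM in chow control replicates 1 to 4 and 207, 195, 188 and 204 in chow antibiotic. After fast food it was at 347, 336, 320.4 and 288 in control and 222, 212, 333 and 249 in antibiotic water. The 2 antibiotic groups did not overlap, yet the meal difference did not pass (0.36 ± 0.13, adjusted p = 0.0776, edgeR). The antibiotic difference with chow was -0.74 ± 0.13 (adjusted p = 0.000943). The mitochondrial thiolase gene Acaa2 was lower in antibiotic water by a similar amount with chow (-0.52 ± 0.14, adjusted p = 0.0134) and with fast food (-0.64 ± 0.14, adjusted p = 0.0214), and its meal difference in antibiotic water was -0.06 ± 0.14. Without fast food antibiotic replicate 2 these last values were -0.57 ± 0.14 (adjusted p = 0.0446, still called) and 0.01 ± 0.14.

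Among the electron transfer genes 1 of 3 was called, Etfdh, the ubiquinone oxidoreductase, in antibiotic water with chow (-0.70 ± 0.18, adjusted p = 0.00822, edgeR). Its meal difference in antibiotic water passed only without fast food replicate 2 (0.48 ± 0.13, adjusted p = 0.0154). Etfa and Etfb, the subunits of the flavoprotein itself, were called in no comparison with or without that library. Etfa had 154 ± 16.3 CPM in chow control, 175 ± 20.8 in fast food control, 166 ± 13.1 in chow antibiotic and 161 ± 17.3 in fast food antibiotic (SD, n = 4). Its largest fold change was -0.22 ± 0.16, the interaction, and the one for antibiotic water with chow was 0.11 ± 0.12. For Etfb the latter was -0.24 ± 0.14, and 44.8% of its exon stretches are shared, mostly with a predicted gene that overlaps it.

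The auxiliary enzymes, which move or reduce double bonds of unsaturated chains, were lower in antibiotic water with chow for 4 of 5. Decr1, Decr2 and Eci1 were lower in antibiotic water with chow and higher after fast food in antibiotic water. Decr2, the peroxisomal dienoyl-CoA reductase, was at 245, 249, 317 and 344 CPM in chow control replicates 1 to 4 and 79.7, 86.7, 130.5 and 131 in chow antibiotic. It was at 402, 391, 362 and 330.4 in fast food control and 251, 119.9, 313 and 242 in fast food antibiotic. Each chow antibiotic library was below each control-water library, and fast food antibiotic replicate 2 was again in their range. The fold changes were -1.44 ± 0.24 for antibiotic water with chow (adjusted p = 0.000643, edgeR) and 1.12 ± 0.24 for fast food in antibiotic water (adjusted p = 0.00883). The mitochondrial reductase gene Decr1 had -1.48 ± 0.28 and 0.99 ± 0.27, and the isomerase gene Eci1 had -1.40 ± 0.26 and 1.01 ± 0.26. Leaving out fast food replicate 2, the meal difference was 1.32 ± 0.18 for Decr2, 1.22 ± 0.21 for Decr1 and 1.23 ± 0.19 for Eci1 (adjusted p = 0.000115, 0.000758 and 0.000341). Eci2, an isomerase also found in peroxisomes, had -0.46 ± 0.14 with chow and -0.49 ± 0.14 with fast food, both called, and 0.02 ± 0.14 for the meal. The fast food value did not pass without that library (-0.46 ± 0.15, adjusted p = 0.0922). Ech1, a dienoyl-CoA isomerase, was called nowhere and had -0.27 ± 0.16 in antibiotic water with chow.

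Of the regulators and other PPAR-alpha targets 4 of 5 were lower in antibiotic water with chow, and 3 of 5 were higher after fast food in antibiotic water (4 of 5 without fast food antibiotic replicate 2). The receptor gene itself, Ppara (ENSMUSG00000022383, chr15:85734983-85802819, plus strand), was at 204, 156, 200.3 and 184 CPM in chow control replicates 1 to 4 and 212, 214, 167 and 217 in fast food control. In antibiotic water it was at 74.2, 55.1, 85.5 and 31.7 after chow and 206, 96.2, 239 and 195 after fast food. Chow antibiotic libraries were below all others, and fast food antibiotic replicates 1, 3 and 4 were in the range of control water or above it. The antibiotic difference was -1.59 ± 0.28 with chow (adjusted p = 0.00107, edgeR) and -0.14 ± 0.27 with fast food (adjusted p = 0.792). Fast food in antibiotic water gave 1.57 ± 0.28 (adjusted p = 0.00428), and the interaction was 1.45 ± 0.38 (adjusted p = 0.0467). With replicate 2 left out, these 3 values were 0.07 ± 0.23 (adjusted p = 0.893), 1.78 ± 0.23 (adjusted p = 0.000116) and 1.65 ± 0.31 (adjusted p = 0.00384), the first of them with the opposite sign and uncalled in both fits. The interaction call held in only 3 of 16 fits with 1 library left out.

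Aldh3a2, the fatty aldehyde dehydrogenase, was at 832, 577, 1032 and 879 CPM in chow control replicates 1 to 4 and 898, 708, 722 and 681 in fast food control. It was at 119, 99.0, 211 and 159 in chow antibiotic and 245, 207, 556 and 339 in fast food antibiotic. Both antibiotic groups were below the control-water group of the same meal, by -2.50 ± 0.30 with chow (adjusted p = 7.91e-05, edgeR) and -1.16 ± 0.29 with fast food (adjusted p = 0.0336). The fast food difference was -0.99 ± 0.29 and did not pass without replicate 2 (adjusted p = 0.0764). Vnn1, a pantetheinase that yields a precursor of coenzyme A, had means of 139 ± 43.5 and 21.3 ± 15.6 CPM in chow control and chow antibiotic (SD, n = 4), a fold change of -2.71 ± 0.54 (adjusted p = 0.00305). Creb3l3, a hepatic transcription factor of the fasting response, had -0.83 ± 0.20 (adjusted p = 0.00767). Pdk4, a kinase that holds back pyruvate oxidation, was lowly expressed (17.1 ± 11.4 CPM in chow control and 6.74 ± 0.969 in fast food control). Its fold change after fast food in control water, -1.35 ± 0.41, did not pass (adjusted p = 0.176, edgeR).

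**Figure D4:**
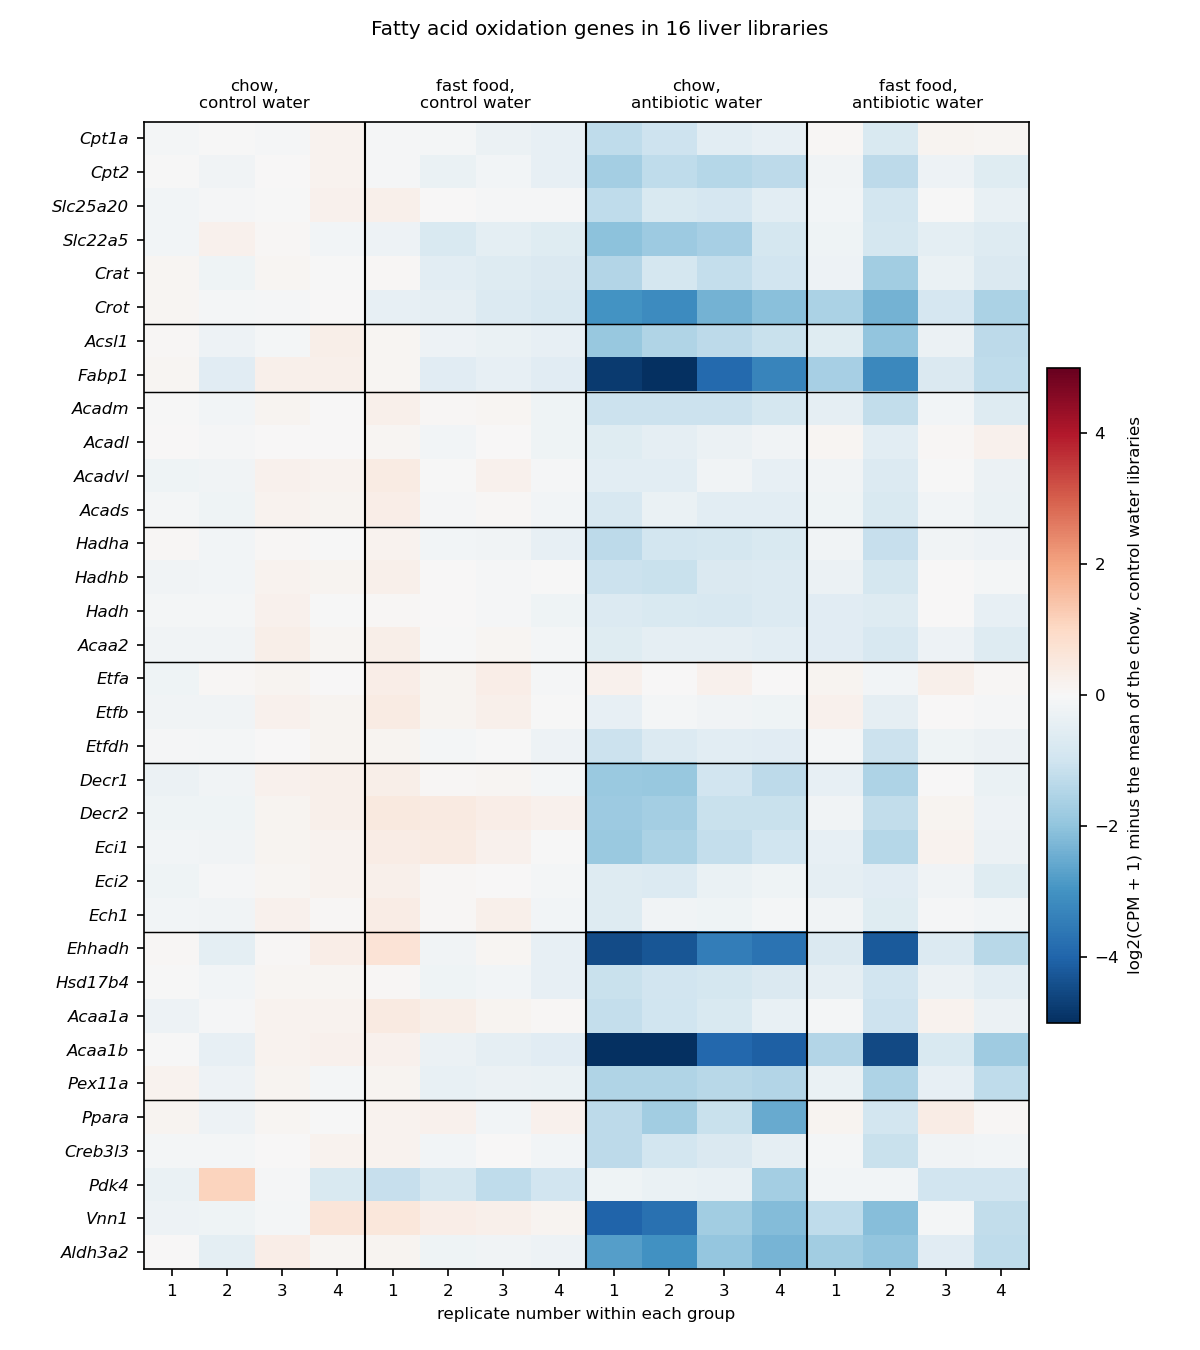
Log2(CPM + 1) of each gene in each library minus the mean of the 4 chow control libraries, with genes in rows by role and replicates 1 to 4 in columns within each group. Blue is lower and red higher, and the colour scale ends at 5 on either side. The deepest blue lies in Acaa1b and Fabp1 in chow antibiotic replicates 1 and 2, followed by Acaa1b in fast food antibiotic replicate 2 and by Ehhadh in those 3 libraries.

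The responses differed in size within the set. With all libraries, Acadl, Acadvl, Etfa, Etfb, Ech1 and Pdk4 were called in no comparison. For 9 genes (Slc25a20, Crat, Acsl1, Acads, Hadh, Etfdh, Hsd17b4, Acaa1a and Creb3l3) the only call was lower in antibiotic water with chow. Another 3 (Acadm, Acaa2 and Eci2) were lower in antibiotic water with both meals and not called for the meal. The remaining 16 were lower in antibiotic water with chow and higher after fast food in antibiotic water, and of these Crot and Aldh3a2 were also lower in antibiotic water with fast food. For 8 of these 16 genes the meal call held without each library in turn. It held in only 2 of 16 such fits for Hadha and for Vnn1, and in 3 of 16 for Pex11a. When fast food antibiotic replicate 2 was left out, 10 more genes were higher after fast food in antibiotic water, namely Slc25a20, Crat, Acsl1, Acadm, Acadl, Hadh, Etfdh, Hsd17b4, Acaa1a and Creb3l3, and Acaa2 alone was lower in antibiotic water with fast food.

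The order of the genes by level also differed between groups, on a scale per length (RPKM, computed from CPM and GENCODE exon lengths). Fabp1 was first in chow control with 6808 ± 1585 RPKM and second in chow antibiotic with 392 ± 217 (SD, n = 4). In chow antibiotic Acaa2 came first with 469 ± 24.6, and the spreads of the 2 genes overlap. Ehhadh went from place 2 to place 13 and Acaa1b from place 4 to place 27. The spread between libraries also differed between groups. The median over the 34 genes of the coefficient of variation was 12.4% in chow control, 12.9% in fast food control, 19.6% in chow antibiotic and 29.0% in fast food antibiotic. The last value fell to 15.1% without replicate 2 (n = 3). For Cpt1a the coefficient in that group went from 25.6% to 3.27% and for Ehhadh from 63.9% to 25.5%.

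**Figure D5:**
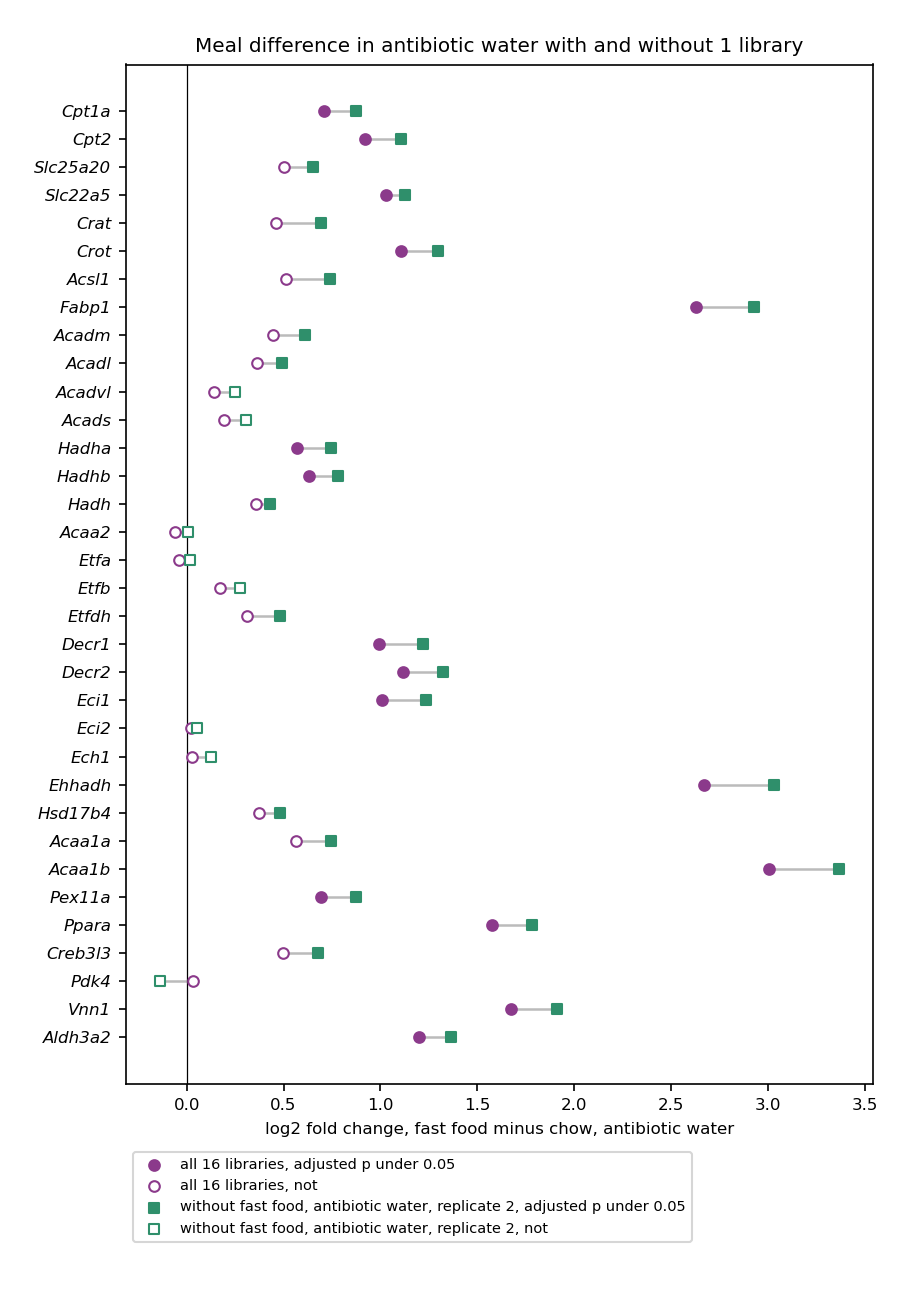
Log2 fold change of fast food against chow in antibiotic water, for each gene with all 16 libraries (circles) and with replicate 2 of fast food antibiotic dropped (squares), filled where the edgeR adjusted p is under 0.05. With all libraries 16 of 34 are filled and without that library 26.

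Fast food antibiotic replicate 2 was the lowest library of its group for 32 of the 34 genes. Leaving it out therefore raises the group mean of those genes. The meal difference in antibiotic water was accordingly larger without it for each of the 16 genes called with all libraries. Among the genes that passed only without it, the difference for Acadm was 0.61 ± 0.13 (edgeR adjusted p = 0.00398) and for Hadh 0.43 ± 0.13 (adjusted p = 0.0262).

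Other genes of the pathways, from lists chosen by function, moved in part with these. Their counts stand beside the shares of all tested genes, which were 13.2% lower and 10.6% higher in antibiotic water with chow, 2.22% lower and 3.77% higher with fast food, and 7.78% higher and 5.87% lower after fast food in antibiotic water. Without fast food antibiotic replicate 2 the shares were 11.9% higher and 10.9% lower for the meal in antibiotic water, and 0.898% lower and 1.93% higher for antibiotic water with fast food.

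Of 19 tested genes of other peroxisomal oxidation, 8 were lower and 1 higher in antibiotic water with chow. After fast food in antibiotic water 6 were higher and 2 lower, or 8 and 1 without that library. In antibiotic water with fast food 1 was higher and 1 lower, and neither passed without it. The lower ones with chow included Acot8, a peroxisomal thioesterase gene (-1.52 ± 0.21), and the catalase gene Cat (-1.09 ± 0.15). After fast food in antibiotic water Cat was higher by 0.70 ± 0.15 and Acot8 by 0.84 ± 0.21 on the log2 scale (0.77 ± 0.15 and 0.98 ± 0.19 without replicate 2). In the other direction went Hacl1, an enzyme of alpha-oxidation, which was higher in antibiotic water with chow (0.89 ± 0.17) and lower after fast food in antibiotic water (-0.74 ± 0.17, or -0.96 ± 0.15 without it).

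Among 15 peroxin genes, which build peroxisomes, 5 were lower and none higher in antibiotic water with chow (median log2 fold change -0.27), among them Pex6 (-0.73 ± 0.14) and Pex14 (-0.61 ± 0.13). Between the meals in antibiotic water 3 were higher after fast food and 1 lower, with and without replicate 2. The higher ones included Pex6 (0.43 ± 0.14) and Pex26 (0.86 ± 0.16), and the lower one was Pex7 (-0.36 ± 0.10). In antibiotic water with fast food 1 peroxin gene was lower, Pex13 (-0.40 ± 0.11), and it did not pass without that library (adjusted p = 0.0992, edgeR).

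Of 18 tested genes of other mitochondrial oxidation 5 were lower and 3 higher in antibiotic water with chow. After fast food in antibiotic water 2 were higher and 1 lower, or 4 and 1 without replicate 2. The thioesterase gene Acot2 had -3.08 ± 0.36 in antibiotic water with chow, while Pcca, a subunit of propionyl-CoA carboxylase, had 0.45 ± 0.11.

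Of 19 tested other PPAR-alpha targets 12 were lower and 2 higher in antibiotic water with chow. After fast food in antibiotic water 7 were higher and 1 lower, or 10 and 1 without replicate 2. In antibiotic water with fast food 1 was lower and 1 higher, or 1 and 0 without it. Plin2, a lipid droplet coat gene, had -2.76 ± 0.30 in antibiotic water with chow and 1.66 ± 0.29 for the meal in antibiotic water (1.90 ± 0.21 without that library). The lipase gene Mgll had -1.86 ± 0.22 and 0.96 ± 0.21 (1.16 ± 0.15). Lpin1, a phosphatidate phosphatase and coactivator, went the other way with 3.55 ± 0.50 and -1.50 ± 0.46 (-1.92 ± 0.48).

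Of 15 partners and coregulators of PPAR-alpha 2 were lower and 2 higher in antibiotic water with chow, with 10 of 15 fold changes positive and a median of 0.15. The lower ones were Nr1h3 (-0.54 ± 0.14) and the partner receptor gene Rxra (-0.33 ± 0.11), and the higher ones the coactivator gene Ncoa2 (0.44 ± 0.14) and the deacetylase gene Sirt1 (0.56 ± 0.19). In antibiotic water with fast food 4 were higher and none lower, among them Med1 (0.54 ± 0.11), Ncoa2 (0.60 ± 0.14) and Ppard (1.07 ± 0.30). Of the 4 only Med1 passed without fast food antibiotic replicate 2 (0.49 ± 0.11, adjusted p = 0.0309, edgeR). For the meal in antibiotic water 1 gene of this list was higher, Ncor1 (0.37 ± 0.12). Without that library Ncor1 did not pass, while Ppargc1b and Nr1h3 were higher and Sirt1 and Hnf4a lower.

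Markers of cell types moved with the groups as well. Defining hepatocyte markers were abundant in all libraries, with a summed CPM of 120264 to 150922 in chow control and 185531 to 249323 in chow antibiotic. Between these groups 4 of 8 were higher in antibiotic water and none lower. In fast food antibiotic the sum was 185395 in replicate 2 and 111016 to 133217 in the other 3 libraries. After fast food in antibiotic water 4 of the 8 were lower and none higher, with a median log2 fold change of -0.66, and 6 of 8 were lower without replicate 2. Kupffer cell markers were lower in antibiotic water with chow for 6 of 6, with summed CPM of 190.4 to 553 in chow control and 101 to 142 in chow antibiotic. With fast food 5 of 6 were lower (239 to 331 in control and 119.5 to 189 in antibiotic water), and 1 of 6 without replicate 2. Stellate cell markers were lower for 3 of 6 in antibiotic water with chow and higher for 2 of 6 after fast food in antibiotic water, with and without that library. Acute phase transcripts summed to 34650.2 CPM in fast food antibiotic replicate 2, against 6178 to 8735 in the other 3 libraries of that group. Adipocyte markers summed to at most 1.63 CPM in any library. Of 4 pancreas acinar markers 3 had a mean under 1 CPM over all libraries, and 1 passed the filter on low counts. Together the 4 markers summed to 10.2 to 18.6 CPM in chow antibiotic and at most 0.429 CPM in any control-water library. In fast food antibiotic they were at 10.9 CPM in replicate 2, inside the chow antibiotic range, and at most 0.825 CPM in the other 3 libraries. The part of these markers in the fatty acid oxidation results was not tested.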

How the data were processed

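Poly(A) RNA of 16 mouse liver libraries was read as single reads of 50 bases, per the labels' protocols. The authors deposited 1 table of raw counts of reads per gene. Per the submitters' processing notes, their tools were STAR, HTSeq, cutadapt, FastQC, edgeR and DESeq2 (no versions stated) with the build GRCm38.p6. Not given in the sources used here are the gene annotation, whether counting used strand, and what was done with reads that match several genes.

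From the deposited counts, all 16 libraries were fitted together by quasi-likelihood in edgeR 4.0.16 (R 4.3.3), 1 mean per group, with TMM factors, filterByExpr (minimum count 10) and robust dispersion. This left 13180 genes. Tests were two-sided contrasts, with Benjamini-Hochberg adjustment over all tested genes and a threshold of 0.05. The SE was taken as the size of the log2 fold change over the root of its F statistic. The procedure was tested on simulated data, which held no library that diverged from its group and no difference in ribosomal RNA-like share. How it handles these was therefore not tested. Exon lengths and positions came from GENCODE M21 (GRCm38, 1-based) and promoter windows from RefSeq.

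Values of every library are given for the 14 genes of lowest p over the 5 comparisons, which include Ppara and Acadm, and for Cpt1a, and from each pathway list a few called genes of lowest p. Where a list had at most 4 calls in a direction, further called genes were named after their values were seen. Some genes that this rule takes are not reported here. The genes and lists were chosen with earlier results of these data known. Of 89 genes in the pathway lists 88 were found in the table. Correlations of same-numbered deviations between groups ran from -0.222 to 0.359, with 3 of 24 over 0.1. Libraries of unlike number were not compared in this way, so whether replicate numbers pair the samples was not tested. No 2 of the 16 libraries agreed within sampling noise (chi-square of counts per degree of freedom at least 15.4 in each of 120 pairs). Alternatives were DESeq2 1.42.0, RLE size factors, other filters, fits to 2 groups, the replicate number as a block, the ribosomal RNA-like share as a covariate, and leaving out libraries.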

Additional observations from a re-analysis of the deposited data

Results flagged for a closer look

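In 8 of 136 sets of 4 libraries (a gene in a group) 1 library lay far from the other 3, with a gap to the nearest of them, relative to the whole range, over Dixon's critical value. Chance gives such a gap in about 1 in 20 sets. Fast food antibiotic replicate 2 was low for Cpt1a (739 CPM, others from 1311 CPM), Hadha (309.8 CPM, others from 574 CPM) and Creb3l3 (169 CPM, others from 329 CPM). Chow antibiotic replicate 4 was high for Acadm (321 CPM, others up to 282 CPM) and low for Pdk4 (3.98 CPM, others up to 12.8 CPM). Fast food control replicate 1 was high for Pex11a (96.7 CPM, others up to 71.5 CPM), and replicate 3 of that group was low for Ppara (167 CPM, others from 212 CPM). Chow control replicate 4 was high for Vnn1 (203.7 CPM, others up to 125 CPM).

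The meal effect differed between the waters for 6 genes by the interaction test (edgeR adjusted p under 0.05), with log2 differences of 3.27 for Acaa1b, 3.00 for Fabp1, 1.68 for Crot, 1.56 for Slc22a5, 1.45 for Ppara and 1.16 for Cpt2.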

How the results depend on the processing

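No gene called with all libraries changed sign under any alternative run. The counts of the 34 genes called moved as follows. Between meals in control water, 0 became 1 with DESeq2 and 2 in a fit to these 2 groups. Between meals in antibiotic water, 16 became 0 in a fit to the 2 groups, 26 without the 3 libraries highest in acute phase transcripts and 0 among the libraries with a high ribosomal RNA-like share (an alternative chosen after seeing the data), and 8 to 26 on leaving out 1 library. For antibiotic water with chow, 28 became 0 among the high-share libraries and 26 to 30 on leaving out 1 library. For antibiotic water with fast food, 5 became 2 without a filter, 3 in a fit to the 2 groups, 0 with the share as a covariate, and 0 to 11 on leaving out 1 library. For the interaction, 6 became 23 without the 3 libraries, 1 with the covariate, and 1 to 18 on leaving out 1 library. The cause of these moves was not tested. Fits to fewer groups also held fewer libraries, and the part of that was not tested either.

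With the replicate number as a block, the counts were 0, 15, 29, 8 and 5 for the meal in control water, the meal in antibiotic water, antibiotic water with chow, antibiotic water with fast food and the interaction. Whether the numbers pair the samples was not tested. Calls kept on leaving out each library in turn numbered 8 of 16, 25 of 28, 0 of 5 and 1 of 6 in the last 4 of these comparisons. Depth limits Pdk4, the gene with the fewest counts, most. The counts of pathway and cell type marker lists without fast food antibiotic replicate 2 were an alternative chosen after seeing the data.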
